A study of Mus musculus with 12 samples.

Results

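The response of Daam1 microexon knockout (KO) neurons to the ROCK inhibitor Y-27632 was examined in 6 of the 12 libraries of the series, 3 labelled KO_Veh and 3 labelled KO_ROCKi, which were chosen by these labels and paired by the numbered cell line in the sample title. The neurons were glutamatergic neurons differentiated in vitro from mouse embryonic stem cells and harvested at day 21 in culture. KO cells carried the label Daam1-MIC_KO and came as cell lines 1, 2 and 3. Each line gave a library after 2 h in vehicle (water) and a library after 2 h in 10 µM Y-27632. Wild-type (WT) neurons of 3 lines, treated in the same 2 ways, served only as a reference. The libraries were stranded and made from poly(A) RNA. Hippocampus is named in the series text but in no sample label, and the labels, which describe cultured neurons, were followed. Nothing in the labels says whether a line is 1 clone or whether the 2 dishes of a line were grown in parallel, so p-values measure the spread between these lines and libraries. The KO libraries held from 23253566 to 35012561 counts.

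ROCK1 and ROCK2 are kinases that act downstream of the small GTPase RhoA. They phosphorylate myosin light chain phosphatase and LIM kinases, which raises actomyosin tension and keeps the actin-severing protein cofilin inactive. Actin polymerization frees the coactivator MRTF from monomeric actin and so feeds into SRF target genes, and tension feeds into YAP and TEAD target genes. Daam1 belongs to the formins, proteins that nucleate and elongate actin filaments, and is itself activated through RhoA and Dishevelled. In neurons, ROCK is known for growth cone collapse and dendritic spine remodelling.

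The inhibitor library of KO line 3 stood apart from the rest of the KO libraries and is described before any test. Over the genes measured, its median correlation with the other KO libraries was 0.803, whereas those of the other 5 KO libraries were 0.972 to 0.983. Between the libraries of line 3, 47.1% of 14883 genes differed by more than 1 on the log2 CPM scale (CPM, counts scaled by library size and TMM factors), against 2.49% in line 1 and 2.99% in line 2. The genes that rose most in this pair, each at 8.53 to 7.97 on the log2 scale, were Pga5, Myl7, Afp, Rarres2, Rtp4 and Myl3, among them a pepsinogen gene, the genes for atrial and slow-muscle myosin light chains and the alpha-fetoprotein gene. The largest falls were in Ddx3y, Eif2s3y, Uty, Npas1, Kcnk9 and Ghsr.

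The first 3 of these falling genes are Y-linked. Ddx3y, which encodes an RNA helicase, had 836 counts in the vehicle library of line 3 and 0 in its inhibitor library. Eif2s3y, for a subunit of translation initiation factor eIF2, had 559 and 0 counts. Uty, for a histone demethylase relative, had 344 and 0 counts. A count of 0 in this library allows up to 0.101 CPM for each gene, and this floor covers counting error alone. No gene other than these 3 was at 0 in the inhibitor library of line 3 while reaching at least 1 CPM in each of the other 11 libraries, and no gene met that description for any of the other libraries. In line 1, Ddx3y and Uty were low in both libraries, with Uty at 1.79 CPM in vehicle and 1.59 CPM in inhibitor, and in line 2 they were high in both, with Uty at 13.2 and 12.1 CPM. Thus the pairs of lines 1 and 2 matched each other in Y-linked RNA within the line and the pair of line 3 did not. Xist, the RNA that coats an inactive X chromosome, had 1 to 6 counts in every library. Whether the cells of the 2 line 3 libraries come from the same line was not tested beyond these genes.

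Cell type markers moved in the same library. The summed level of 6 pan-neuronal markers was 2823 to 3175 CPM in 5 KO libraries and 786 CPM in the inhibitor library of line 3. The 5 epithelial markers (Epcam, Krt8, Krt18, Cdh1 and Cldn6) summed to 1295 CPM there, against 8.79 to 136 CPM elsewhere among KO libraries. The 10 mesenchymal markers summed to 528 CPM, against 16.4 to 66.3 CPM, but most of those tested did not rise. Of the 7 mesenchymal markers tested in lines 1 and 2, 2 were higher and 5 lower with inhibitor in line 3 (median -0.77 on the log2 scale). The 6 endothelial markers reached 385 CPM, against 4.13 to 39.0 CPM, with Cldn5 at 0 in every KO library. In line 1 the epithelial, mesenchymal and endothelial sums were 78.5, 40.4 and 21.9 CPM in vehicle and 136, 66.3 and 39.0 CPM in inhibitor. In line 2 they were 13.0, 16.4 and 5.54 CPM and then 8.79, 18.0 and 4.13 CPM. All of these sums were higher with inhibitor in line 1, and in line 2 the mesenchymal sum was slightly higher and the other two were lower. Glutamatergic markers summed to 345 to 455 CPM in the 5 libraries and GABAergic markers to 587 to 666 CPM, so the labelled cell type was present beside another neuronal class. In bulk RNA, fewer cells of a type and less RNA per cell cannot be told apart. Results are therefore given with all 3 lines and with lines 1 and 2 alone.

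**Figure D1:**
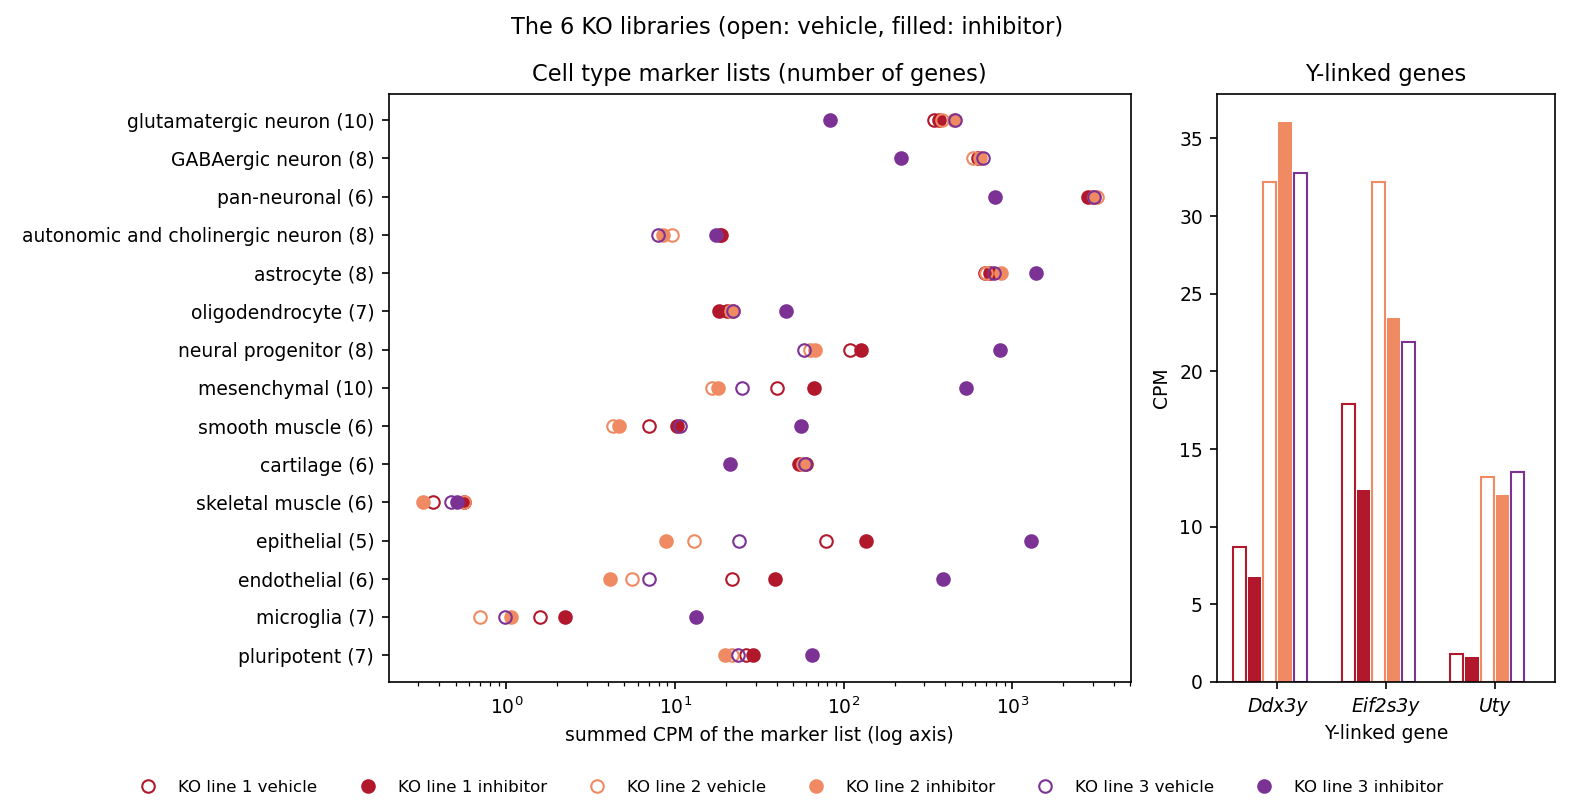
Left, summed CPM (log axis) of 15 cell type marker lists in the 6 KO libraries; right, CPM of 3 Y-linked genes, with bars for single libraries and no error. The inhibitor library of line 3 lies away from the other 5 in the epithelial, endothelial, mesenchymal and pan-neuronal lists and has no bar for any Y-linked gene.

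With all 3 lines, no gene passed the paired test. Of 14681 genes tested, 0 (0.0%) reached an adjusted p below 0.05 in edgeR's quasi-likelihood test, 126 had an unadjusted p under 0.05 (with inhibitor, 36 were higher and 90 lower), and the smallest adjusted p was 0.816. DESeq2 also called 0 genes (321 at an unadjusted p below 0.05), but with the opposite balance, 282 higher and 39 lower. Without the pairing by line, edgeR called 0 genes, and 79 were higher and 54 lower at an unadjusted p below 0.05, so the balance of these counts depends on the fit. The biological coefficient of variation was 0.458. A fit that weights each library by its own noise, limma voom with quality weights, called 156 genes (1.06%), of which 26 were higher and 130 lower. Of these, 86 had the same sign in all 3 lines, and 23 higher and 130 lower genes were also called in lines 1 and 2 alone. For Pga5 the weighted fit gave 0.06 on the log2 scale, against 1.28 in edgeR with 3 lines and -0.18 with lines 1 and 2. For Ddx3y the values were 0.007, -1.63 and -0.02. Both fits use the libraries of lines 1 and 2, so the shared calls are not separate support from line 3.

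The genes that the naming rule gave as lower in each of the 3 lines are described first, although none passed edgeR's test. Miat is a nuclear noncoding RNA of neurons (chr5:112213228-112229395, minus strand, GRCm38). In vehicle it stood at 271, 397 and 146 CPM in lines 1, 2 and 3, and in inhibitor at 111, 142 and 50.1 CPM. Every line was lower with inhibitor by a similar ratio, and the highest inhibitor library lay just below the lowest vehicle library, that of line 3. The paired difference on the log2 scale was -1.41 in edgeR (adjusted p 0.816) and -1.35 in limma voom with quality weights (adjusted p 0.0135). Mir124a-1hg, the host transcript of the neuronal microRNA miR-124, went from 75.7, 89.7 and 39.1 CPM to 38.9, 42.3 and 16.1 CPM. Here too each line was lower, and the inhibitor library of line 2 alone lay above a vehicle library, that of line 3. In line 3 the differences were -1.54 for Miat and -1.28 for Mir124a-1hg, beside a median of -1.88 over the 6 pan-neuronal markers. Whether these line 3 falls are more than the lower neuronal RNA of that inhibitor library was not tested. Coro6, for an actin-binding coronin, went from 114, 118 and 61.6 CPM to 64.0, 66.5 and 22.0 CPM, and Col11a1, for a fibrillar collagen chain, from 22.4, 59.8 and 20.5 CPM to 11.2, 22.4 and 10.9 CPM. Amy1 and Rnpc3 were also lower in each line, but they overlap on the same strand, so reads cannot be assigned to either with certainty.

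Among genes higher in each line, Slc2a1, which encodes the glucose transporter GLUT1, was at 41.4, 27.4 and 49.4 CPM in vehicle and at 71.0, 69.1 and 190 CPM in inhibitor. All inhibitor libraries lay above all vehicle libraries. The 3-line difference on the log2 scale was 1.38 in edgeR (adjusted p 0.816) and 1.05 in limma voom with quality weights (adjusted p 0.0244). Hk2, the inducible hexokinase that starts glycolysis, was at 31.8, 29.3 and 56.0 CPM and then at 53.6, 85.8 and 86.7 CPM. Emp1, Asph, Tbl2 and the noncoding 1700001L05Rik were the other genes that the naming rule gave here, with differences of 0.45 to 2.77 on the log2 scale in single lines. Over all 14681 genes, inhibitor and vehicle libraries did not overlap for 462 higher genes (3.15%) and 835 lower genes (5.69%), and the sign agreed in the 3 lines for 2185 higher (14.9%) and 2379 lower genes (16.2%).

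In lines 1 and 2 alone, 1531 of 14883 genes passed (10.3%), 873 higher (5.87%) and 658 lower (4.42%) with inhibitor, at a biological coefficient of variation of 0.0619. The changes were small. The median change was 0.30 on the log2 scale among genes that rose and 0.46 among those that fell, and 29 rising and 61 falling genes changed by at least 1. These calls rest on 2 pairs and 1 residual degree of freedom. Without the pairing, 0 genes were called (1253 at an unadjusted p below 0.05), and when the WT lines shared in the estimate of the spread, 0 were called (522 at an unadjusted p below 0.05), while DESeq2 called 353 (2.37%, or 3.17% of the 11132 genes to which it gave an adjusted p). Line 3 did not share the direction: 40.0% of the genes that rose in lines 1 and 2 were higher in line 3 and 44.8% of those that fell were lower there, beside 49.5% of all genes tested that were higher.

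A further measurement bears on every gene called in lines 1 and 2. For each gene, each library was placed by whether it lay nearer the vehicle mean or the inhibitor mean of KO lines 1 and 2. The vehicle library of KO line 3, which received water, lay nearer the inhibitor mean for 609 of the 658 genes that fell (92.6%) and for 653 of the 873 that rose (74.8%), beside 62.8% of all genes tested. The vehicle library of WT line 2 did so for 90.1% of the falling and 65.4% of the rising genes, beside 63.4% of all. The vehicle libraries of WT lines 1 and 3 did so for 14.6% and 28.7% of the falling genes, and the inhibitor libraries of WT lines 1 to 3 for 22.3%, 56.2% and 31.0%. The genes that fell in KO lines 1 and 2 thus also separated untreated libraries from each other, by a like amount. Over these genes the median distance from the vehicle mean of KO lines 1 and 2 was -0.52 on the log2 scale in the vehicle library of KO line 3, -0.76 in that of WT line 2 and -0.48 for the inhibitor mean. Over the rising genes these medians were 0.28, 0.32 and 0.28, but the share for WT line 2 (65.4%) was near that of all genes (63.4%). The vehicle libraries of WT lines 1 and 3 lay nearer the inhibitor mean for 33.0% and 45.1% of the rising genes. The inhibitor libraries of WT lines 1 to 3 did so for 46.4%, 52.3% and 41.9%. The means were made from the libraries that chose the genes, so the positions of those 4 libraries carry no evidence. What besides the inhibitor could set these levels was not tested.

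**Figure D2:**
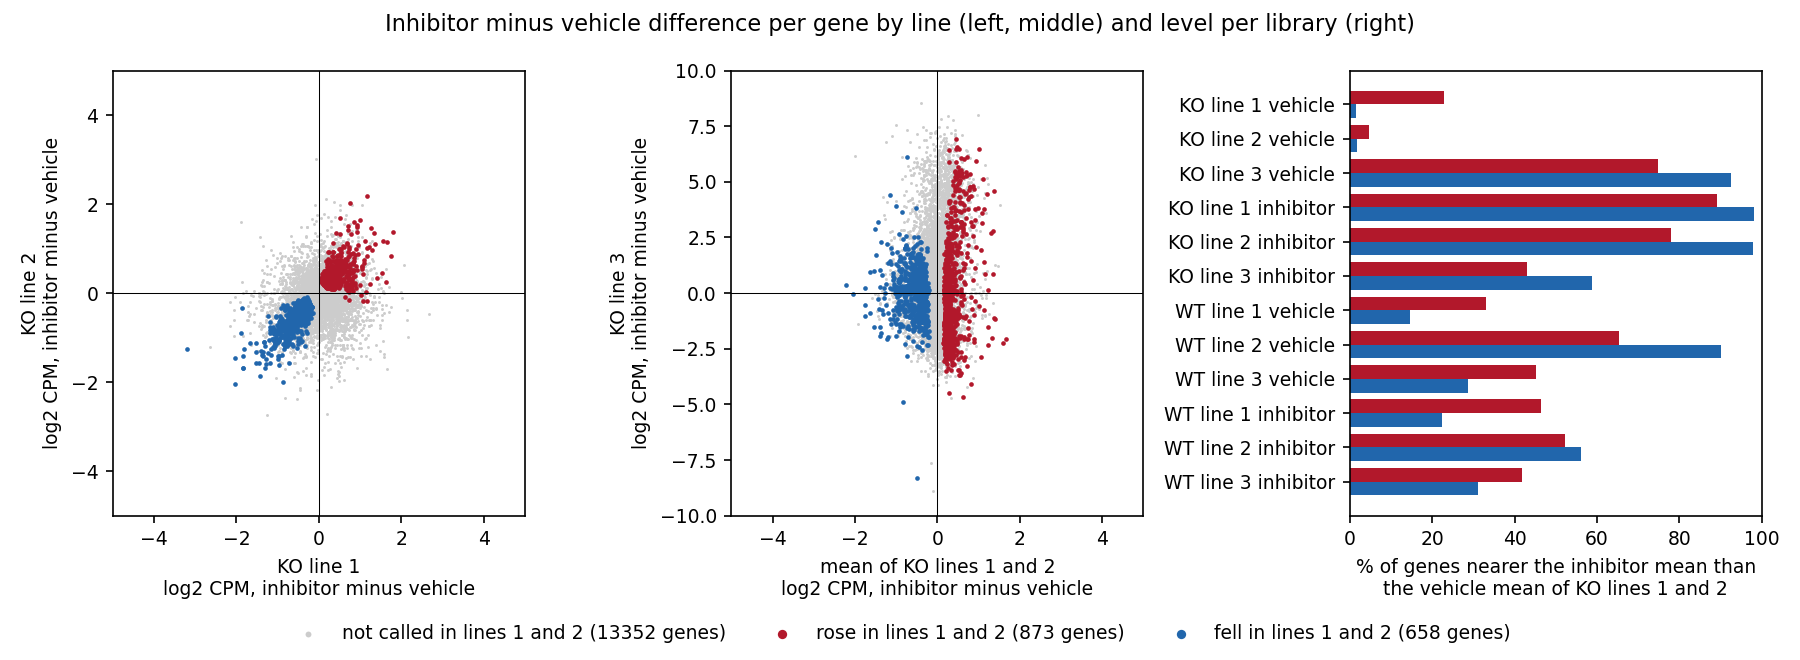
Left and middle, log2 CPM difference (inhibitor minus vehicle) of each gene in KO line 2 against line 1, and in line 3 against the mean of lines 1 and 2; right, share of the 873 rising and 658 falling genes for which each of the 12 libraries lay nearer the inhibitor mean of KO lines 1 and 2. The vehicle libraries of KO line 3 and WT line 2 have 92.6% and 90.1% of the falling genes on the inhibitor side.

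Genes of glucose uptake and glycolysis rose together in lines 1 and 2. Cells take up glucose through GLUT transporters, split it to pyruvate in glycolysis, and reduce pyruvate to lactate with lactate dehydrogenase. When oxygen or its sensing falls, the transcription factor HIF-1 raises many of these genes by binding the core motif ACGTG, so the same genes serve as hypoxia markers. Of 15 genes in the hypoxia and glycolysis list, 9 rose and 0 fell in lines 1 and 2, or 60.0% against 10.3% of all genes. Here and in the lists below, the share of all genes is not matched for level. Of the 4948 annotated genes in the third with the highest mean CPM, 582 rose and 226 fell. The list median was 0.31 in line 1 and 0.58 in line 2 on the log2 scale, beside 0.00 and -0.01 for all genes. In line 3 it was -0.26. In WT lines 1 to 3 it was -0.25, -0.72 and 0.00.

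The promoters of 4 rising genes of the list are shown so that the HIF core motif can be looked for in them. They run from 250 bases before to 50 bases after the RefSeq transcription start (GRCm38.p6, plus strand): Slc2a1 at chr4:119108495-119108794, Pgk1 at chrX:106186850-106187149, Ldha at chr7:46845554-46845853 and Pdk1 at chr2:71872974-71873273. Capitals mark ACGTG on either strand (CACGT on the strand shown), and CACGTG holds both readings in 1 block.
Slc2a1: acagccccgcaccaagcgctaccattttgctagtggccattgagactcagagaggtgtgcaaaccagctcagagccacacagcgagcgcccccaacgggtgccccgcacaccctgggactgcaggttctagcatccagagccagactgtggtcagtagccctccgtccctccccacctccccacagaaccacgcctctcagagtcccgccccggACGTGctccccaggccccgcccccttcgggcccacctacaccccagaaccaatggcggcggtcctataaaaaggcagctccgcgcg
Pgk1: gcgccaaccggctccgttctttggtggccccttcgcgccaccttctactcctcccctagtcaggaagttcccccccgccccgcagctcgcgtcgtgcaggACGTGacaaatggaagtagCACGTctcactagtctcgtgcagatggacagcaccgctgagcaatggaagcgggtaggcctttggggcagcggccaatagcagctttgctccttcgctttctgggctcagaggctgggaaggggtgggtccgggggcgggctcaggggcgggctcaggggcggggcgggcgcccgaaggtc
Ldha: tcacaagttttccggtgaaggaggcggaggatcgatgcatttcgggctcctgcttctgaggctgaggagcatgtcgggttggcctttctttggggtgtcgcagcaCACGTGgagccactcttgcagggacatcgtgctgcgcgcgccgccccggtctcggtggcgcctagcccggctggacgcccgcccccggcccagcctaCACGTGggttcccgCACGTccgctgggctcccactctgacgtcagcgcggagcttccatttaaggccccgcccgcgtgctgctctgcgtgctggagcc
Pdk1: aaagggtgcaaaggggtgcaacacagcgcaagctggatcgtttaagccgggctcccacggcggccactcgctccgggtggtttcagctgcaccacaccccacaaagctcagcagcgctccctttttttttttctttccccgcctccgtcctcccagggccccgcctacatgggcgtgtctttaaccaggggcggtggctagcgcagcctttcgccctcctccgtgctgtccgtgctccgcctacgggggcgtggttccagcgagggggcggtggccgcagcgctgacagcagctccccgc
Slc2a1 had 1 block, Pgk1 had 2, Ldha had 3 and Pdk1 had 0. Ldha has 2 promoters in the RefSeq table, of which the one not shown does not hold the motif, and neither of the 2 for Pdk1 does. Of the 9 rising genes, 7 had a promoter in the RefSeq table and 4 of these held the motif in at least 1 promoter, beside 3235 of 11275 genes tested that had a promoter (28.7%). Among the list genes that were not called, Ankrd37, Bnip3, Egln3, Hk2 and Vegfa also held the motif, and only Pfkp did not. Within the list the motif thus did not set the rising genes apart. Over promoters rather than genes, the motif occurred in 10 of 18 windows of the list (55.6%), in 27.5% of those of all rising genes, in 22.2% of those of falling genes, in 24.7% of those of all genes tested and in 19.6% of all 32851 RefSeq promoters. The list was drawn up from known hypoxia genes, so its share describes the list. A match is a run of letters and not a bound site.

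Along the pathway, uptake came first. Slc2a1 rose by 1.07 ± 0.13 on the log2 scale (SE, n = 2 lines, as for all differences given with ± here) with an adjusted p of 0.00642 in edgeR. Slc2a3, the neuronal glucose transporter GLUT3, was at 391, 358 and 535 CPM in vehicle (lines 1 to 3) and at 570, 602 and 448 CPM in inhibitor. Lines 1 and 2 were higher with inhibitor and line 3 was lower, and the vehicle library of line 3 lay close to the inhibitor libraries of lines 1 and 2. Slc2a3 rose by 0.67 ± 0.06 in lines 1 and 2 (adjusted p 5.38e-08). Pfkl, the liver-type phosphofructokinase subunit, rose by 0.47 ± 0.06 and Pfkp, the platelet-type subunit, did not pass (-0.13 ± 0.06, adjusted p 0.185). Aldoa, for aldolase, was at 614, 675 and 797 CPM and then at 774, 866 and 367 CPM, a rise of 0.37 ± 0.05. Pgk1, for phosphoglycerate kinase, was at 565, 519 and 610 CPM and then at 680, 683 and 567 CPM, a rise of 0.35 ± 0.05. Ldha, for lactate dehydrogenase A, was at 614, 566 and 748 CPM and then at 807, 913 and 367 CPM, a rise of 0.56 ± 0.06 (adjusted p 3.41e-05). In these 3 genes both lines rose, and the line 3 inhibitor library was below its vehicle library.

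Pdk1, for a kinase that inhibits pyruvate dehydrogenase in the mitochondrion, rose by 0.76 ± 0.13 (adjusted p 0.0422), Ndrg1 by 0.44 ± 0.08 and Adm, for the peptide adrenomedullin, by 1.52 ± 0.43 from under 1 CPM in lines 1 and 2. Hk2 (1.17 ± 0.31, adjusted p 0.293), Vegfa (0.10 ± 0.07), Bnip3 (0.42 ± 0.23), Egln3 (0.35 ± 0.13) and Ankrd37 (-0.03 ± 0.21) did not pass. Several enzymes outside the list were looked up after these values were seen. Hk1 rose by 0.42 ± 0.06, Gpi1 by 0.30 ± 0.05, Tpi1 by 0.47 ± 0.05, Pgam1 by 0.45 ± 0.05 and Pkm by 0.45 ± 0.05, so that most steps from hexokinase to pyruvate kinase had a called gene. In line 3 each was lower with inhibitor, from -0.96 (Pkm) to -2.01 (Hk1) on the log2 scale. The vehicle library of line 3 lay at the inhibitor level of lines 1 and 2 in Pgam1 (1239 against 1238 and 1428 CPM) and Pkm (1186 against 1163 and 1294 CPM). In Tpi1 it lay below that level (817 against 885 and 950 CPM). Gapdh (0.20 ± 0.07, adjusted p 0.0557 in edgeR) did not pass, and Eno1 rose by 0.56 ± 0.11 (adjusted p 0.00215 in edgeR). The levels of Gapdh and Eno1 are uncertain because near-identical copies can share their reads. The HIF prolyl hydroxylase gene Egln1 rose by 0.51 ± 0.06 and Fam162a by 0.73 ± 0.07, and both were lower in line 3 (-1.385 and -1.03). Slc16a3, the lactate exporter MCT4, was at 50.4, 46.2 and 74.2 CPM and then at 87.5, 121 and 38.0 CPM (1.12 ± 0.17, adjusted p 0.0586).

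**Figure D3:**
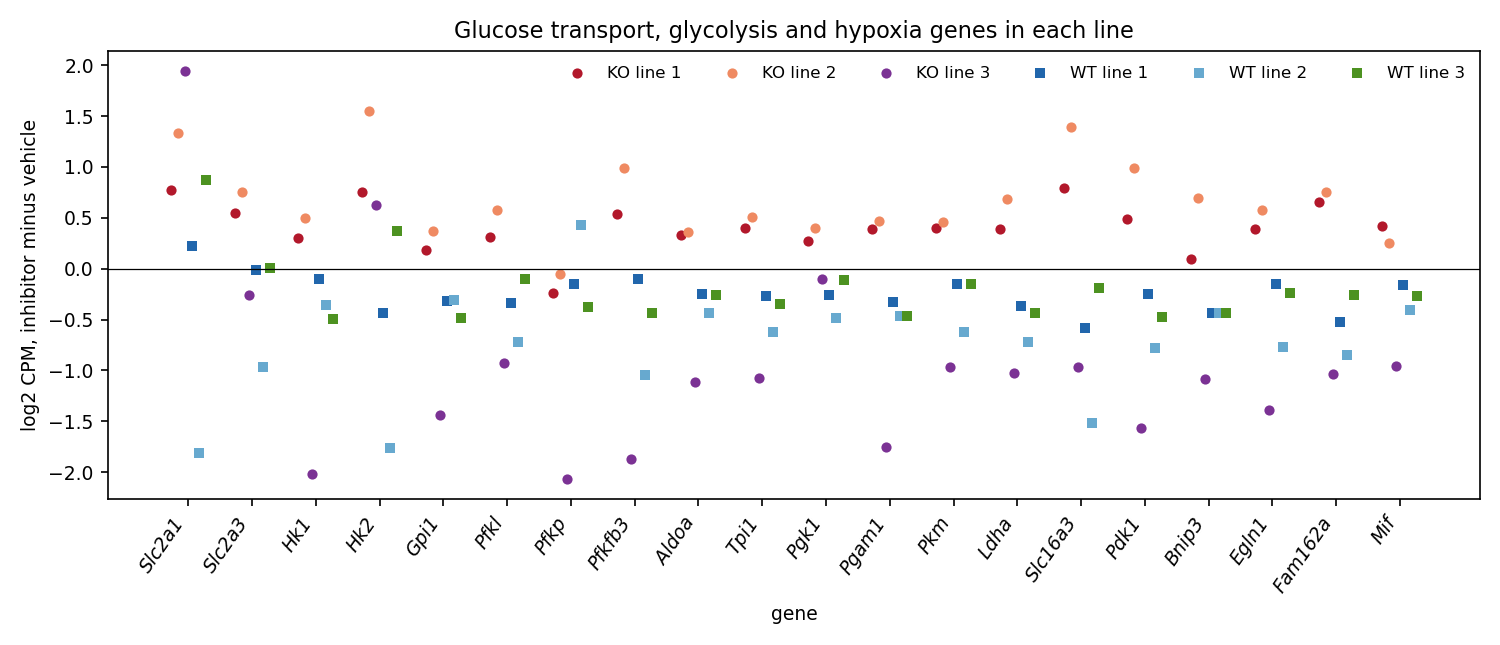
Log2 CPM difference (inhibitor minus vehicle) of 20 genes of glucose transport, glycolysis and hypoxia in 3 KO and 3 WT lines, 1 point per line and no error. KO lines 1 and 2 lie above 0 in all genes except Pfkp, while KO line 3 and the WT lines lie mostly below 0.

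The genes with the largest rises in lines 1 and 2 were expressed at low levels. At a mean of at least 1 CPM, those with the largest changes included Col8a1, S100a6, Slc34a2, Otop1, Emp1, Ahnak2, Dock5, Mgarp, Stc2, Tnc and B4galnt2, with log2 differences of 1.19 to 1.55. Among all 873 rising genes the largest rise was 2.025. Some rest on few reads in line 2: Slc34a2 had 4 counts in vehicle and 9 in inhibitor, Dock5 6 and 12, and B4galnt2 6 and 18. Mgarp, which encodes a mitochondrial protein known to respond to hypoxia, was at 6.18, 5.50 and 9.88 CPM in vehicle and at 11.8, 16.1 and 1.91 CPM in inhibitor, a rise of 1.26 ± 0.15 in lines 1 and 2 (adjusted p 1.29e-05, edgeR). Stc2, for the secreted glycoprotein stanniocalcin 2, was at 7.32, 7.14 and 12.8 CPM and then at 13.2, 21.7 and 4.33 CPM (1.25 ± 0.16). Emp1, for an epithelial membrane protein, was at 2.64, 1.25 and 5.41 CPM and then at 6.75, 3.30 and 37.3 CPM (1.40 ± 0.22). Mgarp and Stc2 were higher in lines 1 and 2 and lower in line 3, and Emp1 was higher in each line.

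Matrix genes were the other group with many rises. Of 22 extracellular matrix genes, 8 rose and 0 fell in lines 1 and 2 (36.4% against 10.3% of all genes), with list medians of 0.58 in line 1, 0.68 in line 2 and 0.38 in line 3. Fn1, for fibronectin, was at 40.2, 14.5 and 60.5 CPM in vehicle and at 90.0, 29.6 and 540 CPM in inhibitor. It was higher in each line, though the vehicle level differed between lines by more than the change in line 2. Fn1 rose by 1.13 ± 0.08 in lines 1 and 2 (adjusted p 4.73e-09) and had an adjusted p of 0.816 with 3 lines. Thbs1 (0.89 ± 0.11), Lox (1.06 ± 0.25), Postn (0.67 ± 0.16), Fbn1 (0.50 ± 0.12), Col6a2 (0.68 ± 0.19), Bgn (0.91 ± 0.26) and Timp3 (0.42 ± 0.10) also rose. Sparc, Col4a1 and Col4a2, the matrix genes with the highest level per length, did not pass, and neither did Col1a1 and Col1a2. Beside this list, the 10 mesenchymal markers summed to 40.4 CPM in vehicle and 66.3 CPM in inhibitor in line 1 and to 16.4 and 18.0 CPM in line 2, and their part in the result was not tested. In the WT lines the list median was 0.00, -2.01 and 2.67, so the libraries of WT lines 2 and 3 differed by more than those of KO lines 1 and 2.

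The genes that fell with the smallest p in lines 1 and 2 were Snhg11, Miat, Leng8, Rsrp1 and Mir124a-1hg. Apart from Miat and Mir124a-1hg, the genes of this paragraph were chosen after their values were seen, and no list of them was counted. Snhg11, a neuronal transcript named as a small nucleolar RNA host gene (chr2:158375638-158386145, plus strand), was at 2868, 3201 and 1339 CPM in vehicle and at 1337, 1519 and 597 CPM in inhibitor. Each line was lower with inhibitor, yet the vehicle library of line 3 lay at the inhibitor level of lines 1 and 2. The line 3 difference of -1.17 also stood beside a median of -1.88 over the 6 pan-neuronal markers in that line. Snhg11 fell by 1.07 ± 0.05 on the log2 scale in lines 1 and 2 (adjusted p 6.7e-12) and had an adjusted p of 0.816 with 3 lines. Miat fell by 1.36 ± 0.06 and Mir124a-1hg by 1.00 ± 0.07 in lines 1 and 2. Leng8, known for a part in nuclear RNA export, was at 173, 193 and 85.0 CPM and then at 85.4, 88.7 and 146 CPM. It fell by 1.05 ± 0.06 in lines 1 and 2 (adjusted p 1.52e-10), and line 3 went the other way. Rsrp1, for an arginine- and serine-rich protein, fell by 0.94 ± 0.06, and Pnisr, for a partner of the nuclear speckle protein pinin, by 0.84 ± 0.07. Luc7l3, a relative of a yeast U1 snRNP protein, fell by 0.83 ± 0.06 and Arglu1, a splicing modulator, by 0.88 ± 0.07. Ogt, the enzyme that adds O-GlcNAc to proteins, fell by 0.70 ± 0.06 and Tia1, a splicing and stress granule protein, by 0.77 ± 0.07. In line 3, Rsrp1 was higher with inhibitor by 0.56, Pnisr by 0.20, Luc7l3 by 0.34, Arglu1 by 0.54 and Ogt by 0.23, whereas Tia1 differed by -0.17. Clk1, also looked up, did not pass in lines 1 and 2 (-0.57 ± 0.15, adjusted p 0.116 in edgeR) and was higher by 1.68 in line 3.

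**Figure D4:**
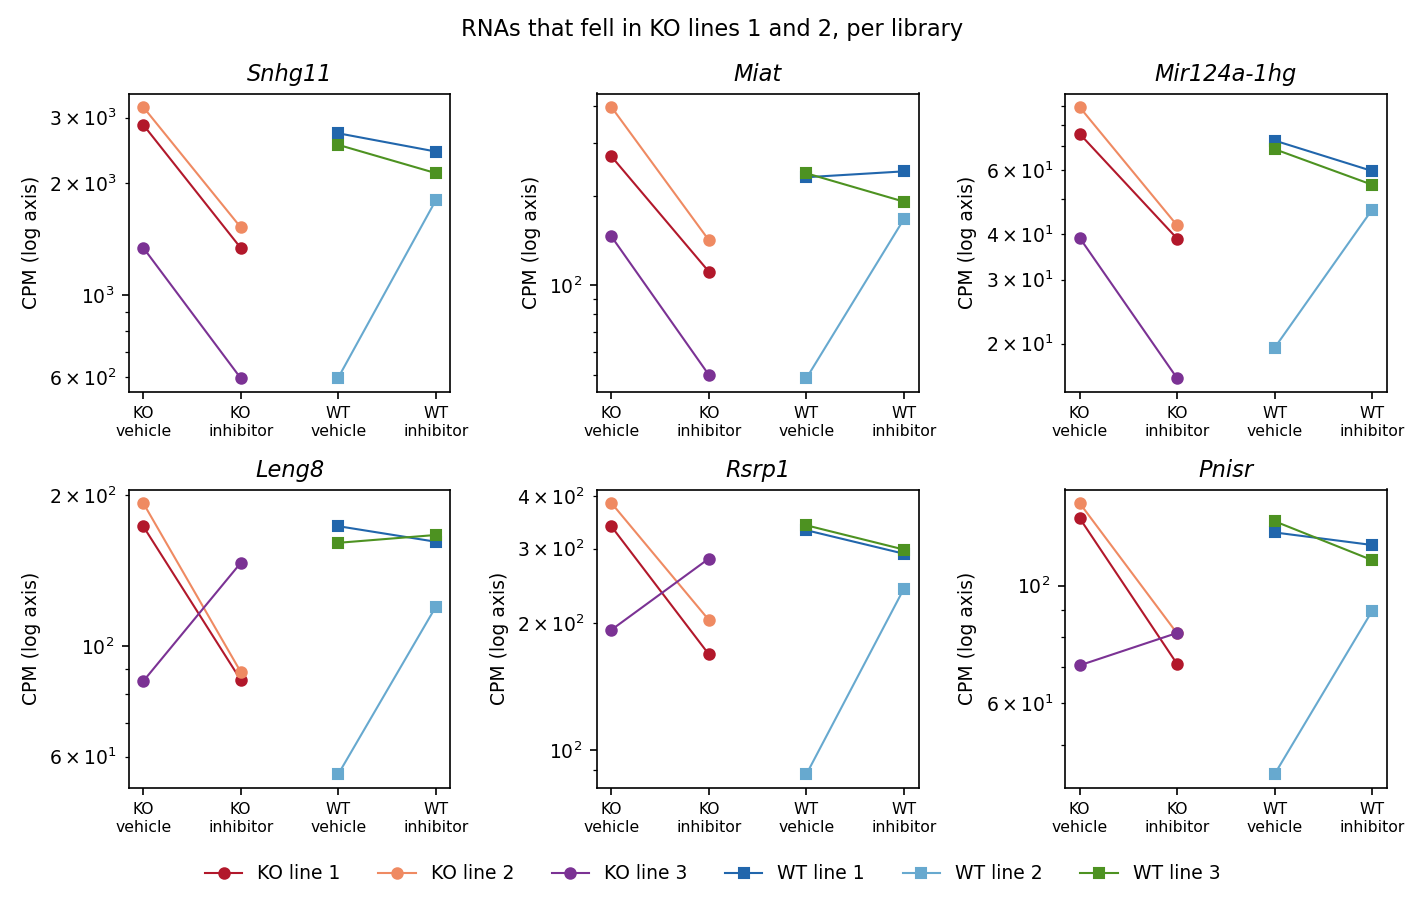
CPM (log axes, a separate range for each gene) of 6 RNAs in the 12 libraries, with the vehicle and inhibitor libraries of a line joined. KO lines 1 and 2 fall in every panel, KO line 3 starts near their inhibitor level, and WT line 2 rises from a low vehicle level.

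By size, the naming rule gave Muc3a, Ankrd1, Col11a2, AI480526, D930048N14Rik, Gm19938, Plekhg4, Miat, Meg3, C78859, Dok3 and Thbs3, with falls of 1.27 to 1.59 on the log2 scale. AI480526 and Gm19938 overlap other genes on the same strand and are uncertain. Plekhg4, for a guanine nucleotide exchange factor family member, was at 7.47, 9.09 and 4.12 CPM in vehicle and at 2.84, 3.44 and 1.15 CPM in inhibitor. All inhibitor libraries lay below all vehicle libraries. It fell by 1.37 ± 0.18 in lines 1 and 2 (adjusted p 1.18e-05) and had an unadjusted p of 0.0115 with 3 lines (adjusted p 0.816, edgeR). Col11a2, C78859 and Dok3 were also lower in each of the 3 lines, and Muc3a and Thbs3 were lower in lines 1 and 2 alone.

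What the falling genes share was read from the GENCODE M21 annotation. Of those annotated, 69.8% of the 658 falling genes had a transcript model with a retained intron, against 61.6% of the 873 rising genes and 52.7% of all genes tested. Among the third of genes with the highest mean CPM the shares were 78.3%, 64.1% and 64.8%, and among those of middle level 74.3%, 58.6% and 58.1%. Among those of low level the order of falling and rising genes was the opposite, at 45.1%, 51.7% and 35.2%. Long noncoding RNAs made up 8.40% of falling, 0.459% of rising and 7.35% of all genes. Falling genes were shorter on the chromosome, with a median span of 17890 bp, against 57220 bp for rising genes and 23660 bp for all. These features are descriptions of genes that the test chose. Counts per gene do not tell spliced from unspliced RNA.

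In the lists of the pathway that Y-27632 acts on, from its upstream regulators to ROCK substrates, 12.5% to 33.3% of genes passed in lines 1 and 2, beside 10.3% of all genes. Because genes of higher CPM were called more often, shares near 10.3% are not read as a response of a list. Rock2, the main ROCK kinase of brain by textbook account, was at 95.4, 86.8 and 92.5 CPM in vehicle and at 94.3, 88.2 and 114 CPM in inhibitor, and its difference in lines 1 and 2 was 0.03 ± 0.07 (adjusted p 0.874). Rock1 was at 24.1, 18.3 and 12.8 CPM and then at 18.1, 13.8 and 63.5 CPM. It fell by 0.39 ± 0.10 in lines 1 and 2 (adjusted p 0.0185), while line 3 was higher. Dmpk, a kinase of the same family, fell by 1.04 ± 0.13, from 14.5 and 16.4 CPM to 7.13 and 7.58 CPM in lines 1 and 2. In line 3 Dmpk was at 7.53 CPM in vehicle and 12.2 CPM in inhibitor. Of 6 ROCK and related kinases, 2 fell and 0 rose (33.3% called).

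Upstream, 1 of 13 genes for small GTPases of the RhoA family and their regulators rose and 1 fell (15.4% called against 10.3% of all genes). Arhgef1, a RhoA activator downstream of G protein-coupled receptors, was at 57.8, 72.3 and 33.7 CPM in vehicle and at 34.2, 36.9 and 71.3 CPM in inhibitor, a fall of 0.84 ± 0.08 in lines 1 and 2. Arhgap35, which inactivates RhoA, rose by 0.24 ± 0.06. Rhoa itself (0.12 ± 0.06) and Rhob (0.15 ± 0.06) did not pass. Downstream, 1 of 24 ROCK substrates and effectors rose and 2 fell (12.5% called). Ssh3, of the slingshot phosphatases that reactivate cofilin, was at 48.7, 46.0 and 16.8 CPM and then at 22.7, 19.7 and 46.4 CPM. It fell by 1.14 ± 0.09 in lines 1 and 2 (adjusted p 5.4e-09), and in line 3 the order was the opposite. Limk2, the kinase that inactivates cofilin, fell by 0.21 ± 0.06 and Myh10, for nonmuscle myosin IIB, rose by 0.31 ± 0.06. Cfl1, for cofilin (0.05 ± 0.06), and Limk1 (-0.09 ± 0.06) did not pass.

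Daam1 was at 155, 161 and 182 CPM in vehicle and at 167, 188 and 67.9 CPM in inhibitor, a difference of 0.19 ± 0.06 in lines 1 and 2 (adjusted p 0.0552). Gene counts do not show the deleted microexon and so do not check the KO label. Of 14 formins, 0 passed in either direction. Of 20 SRF-linked genes tested, 3 rose and 0 fell (15.0% called against 10.3% of all genes): Acta2 (1.00 ± 0.26), Cald1 (0.58 ± 0.10) and Itga5 (0.75 ± 0.16), which encode smooth muscle actin, caldesmon and an integrin. Actb (0.07 ± 0.06) and Srf (-0.07 ± 0.09) did not pass, and the list medians were 0.10 in line 1, 0.09 in line 2 and 1.79 in line 3. Of 18 YAP target genes, 16.7% were called: Ptpn14 rose by 0.71 ± 0.16, while Ccn1 fell by 0.57 ± 0.12 and Ankrd1 by 1.52 ± 0.32. Ankrd1 was at 6.15, 0.563 and 1.37 CPM in vehicle and at 1.63, 0.434 and 4.90 CPM in inhibitor, so its fall rests mainly on line 1. Ccn2 (0.33 ± 0.12, adjusted p 0.161) did not pass.

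Immediate early genes are those that neurons switch on soon after activity. Of 30 tested, 7 rose and 1 fell in lines 1 and 2 (26.7% called against 10.3% of all), with list medians of 0.20, 0.29 and 0.02 in lines 1 to 3. Fos was at 28.4, 12.6 and 25.2 CPM in vehicle and at 33.3, 21.5 and 11.6 CPM in inhibitor, a rise of 0.50 ± 0.12 in lines 1 and 2 (adjusted p 0.0192). The inhibitor and vehicle libraries of Fos overlapped. Fosl2 (0.51 ± 0.13), Dusp4 (0.39 ± 0.10), Btg2 (0.37 ± 0.11), Dusp6 (0.34 ± 0.10), Per1 (0.27 ± 0.09) and Jun (0.22 ± 0.07) rose as well. Npas4, the calcium-driven neuronal factor, fell by 0.78 ± 0.18 and was lower in each line, from 6.48, 5.97 and 4.43 CPM to 3.63, 3.53 and 0.859 CPM. Arc (0.13 ± 0.11) and Egr1 (0.18 ± 0.49) did not pass.

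Synaptic and cytoskeletal genes changed by small amounts in lines 1 and 2. Of 17 presynaptic genes, 5 rose and 1 fell (35.3% called against 10.3% of all genes, which is not matched for the high level of many synaptic genes). Bsn, for the active zone scaffold bassoon, was at 135, 143 and 198 CPM in vehicle and at 175, 190 and 37.8 CPM in inhibitor, a rise of 0.42 ± 0.06 in lines 1 and 2 (adjusted p 5.92e-05). Pclo (0.27 ± 0.07), Sv2a (0.25 ± 0.05), Syt1 (0.19 ± 0.06) and Syp (0.17 ± 0.05) rose and Snap25 fell by 0.18 ± 0.06. Of 21 postsynaptic genes, 4 rose and 1 fell (23.8% called). Grin2b, for the GluN2B subunit of NMDA receptors, was at 127, 130 and 210 CPM and then at 189, 214 and 53.1 CPM. It rose by 0.67 ± 0.06 in lines 1 and 2 (adjusted p 1.09e-07), and the vehicle library of line 3 lay at the inhibitor level of the other lines. Grin2a (0.31 ± 0.07) and Grin1 (0.23 ± 0.05) rose and Shank1 fell by 0.21 ± 0.06. Of 16 axonal and cytoskeletal genes, Map1b (0.37 ± 0.05) and Map2 (0.26 ± 0.05) rose (12.5% called). In line 3 the medians of the 3 lists were -2.24, -1.81 and -2.01, beside the lower neuronal marker sums of that inhibitor library.

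The summed share of counts from mitochondrially encoded genes was lower with inhibitor in each KO line. Their share of counts was 18.5%, 16.6% and 13.8% in vehicle and 13.7%, 14.8% and 9.96% in inhibitor in lines 1 to 3. In the WT lines it was 16.2%, 15.9% and 15.0% in vehicle and 16.2%, 16.6% and 17.4% in inhibitor. The share in the WT lines thus differed by -0.03, 0.74 and 2.40 percentage points. Of the 13 protein genes, 6 fell and 0 rose in lines 1 and 2 (46.2% against 10.3% of all genes): mt-Nd1, mt-Nd2, mt-Nd5, mt-Co2, mt-Co3 and mt-Cytb, by 0.25 to 0.38 on the log2 scale. In lines 2 and 3 all 13 were lower, but in line 1 mt-Nd3, mt-Nd4l and mt-Atp8 were higher, mt-Atp8 going from 272 to 882 CPM and mt-Nd4l from 691 to 1153 CPM. Both of these overlap a neighbour on the same strand, so their counts are uncertain. An exact permutation test of the line differences in share between KO and WT lines gave a two-sided p of 0.1, the smallest that 3 against 3 lines allow, and 0.793 after Benjamini-Hochberg adjustment over 17 measures. KO line 3 counts in this test like the other lines, although its inhibitor library stood apart.

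The remaining lists were called at 12.5% to 21.4%, beside 10.3% of all genes, which is not matched for level. Of 19 cell cycle genes, Mki67, Top2a, Mcm5 and Tpx2 rose, at 0.56 to 0.97 on the log2 scale. They were far higher in line 1 than in line 2, with Top2a at 26.8 and 1.39 CPM in vehicle and 42.1 and 1.82 CPM in inhibitor. Of 16 stress genes, Hmox1 (0.62 ± 0.15) and Cdkn1a (0.50 ± 0.08), the genes for heme oxygenase and the p21 cell cycle inhibitor, rose. Of 14 cholesterol synthesis genes, 1 rose and 2 fell (21.4% called). Idi1 fell by 0.35 ± 0.07 and Fdps by 0.22 ± 0.07.

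**Figure D5:**
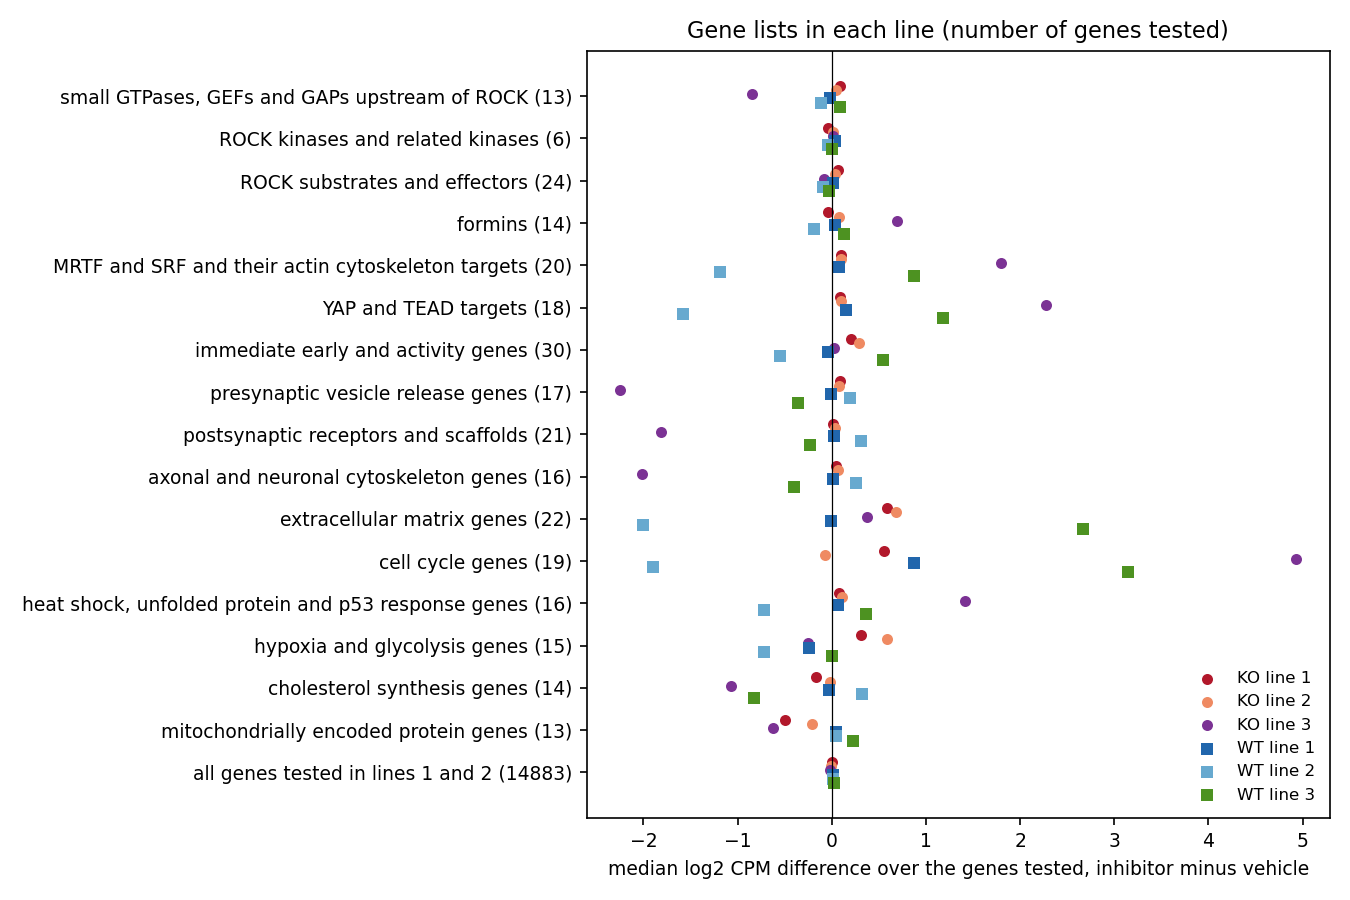
Median log2 CPM difference (inhibitor minus vehicle) of 16 gene lists and of all genes tested, 1 point for each of 3 KO and 3 WT lines and no error. KO lines 1 and 2 lie within 0.7 of 0 in every list, KO line 3 reaches 4.93 in cell cycle genes, and WT lines 2 and 3 lie on opposite sides in the matrix and cell cycle lists.

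Whether KO neurons responded differently from WT neurons was tested as the difference of the paired responses. With all 12 libraries, 0 of 15443 genes were called (0.0%; 167 at an unadjusted p below 0.05, edgeR), and the genes of smallest p were Gm45425, Gm8098 and Vwa5b2. Without KO line 3, 0 of 15612 were called (689 at an unadjusted p below 0.05), and the genes of smallest p were Pgam1, Fam162a and H2-Ab1. DESeq2 on the same 10 libraries called 29 genes (0.186%), 26 with a higher and 3 with a lower response in KO. It gave no adjusted p to 8475 genes, so these are 0.406% of the 7137 that had one. Of the 15 genes in the hypoxia and glycolysis list, 12 had an adjusted p and 6 were called, each with a higher response in KO: Pgk1, Ldha, Aldoa, Pfkl, Pdk1 and Bnip3. Fam162a was at 43.2 and 56.0 CPM in vehicle and at 68.1 and 94.5 CPM in inhibitor in KO lines 1 and 2, and at 53.2, 77.3 and 52.3 CPM and then 37.0, 42.9 and 43.8 CPM in the WT lines. Every one of these WT lines was lower with inhibitor and both KO lines were higher, with a difference of responses of 1.25 on the log2 scale (adjusted p 1 in edgeR, with WT and KO vehicle levels overlapping). When WT lines 2 and 3 were also left out, a choice made after their libraries were seen to differ, 197 genes were called (1.25%), 117 higher and 80 lower in KO, of which 110 and 78 were also called in KO lines 1 and 2. That fit has 1 WT line, which is assumed to vary like the KO lines.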

How the data were processed

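Poly(A) RNA of 12 libraries of cultured mouse neurons was sequenced, and the 6 KO libraries were compared by line. Per the file contents, the authors deposited a table of 36902 genes per library with whole-number read counts, not normalized, and cRPKM, an RPKM form scaled by gene length and library size. The deposited cRPKM values served only to rank genes by level per length. The build is mm10, per the submitters' processing notes; the aligner, the annotation and any use of strand in counting are not given in the sources used here, so antisense overlaps cannot be told apart. In each file, 3342 genes were NA, and 33371 of the 33560 identifiers with counts matched a symbol. Coordinates are from GENCODE M21 (GRCm38).

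Counts were tested in R 4.3.3 with edgeR 4.0.16 (filterByExpr, TMM, quasi-likelihood F test with robust estimation, cell line as a block), and adjusted by Benjamini-Hochberg over all genes tested. The threshold was an adjusted p of 0.05. The SE of a log2 fold change was derived from it and the F statistic. Differences within a line are of log2 CPM with a prior count of 2. The pairing comes from the cell line numbers in the labels. Over the 3 KO lines, the correlation of same-line deviations from the group means was -0.19, 0.57 and -0.37, and with lines 1 and 2 alone 0.77. No 2 libraries agreed within sampling noise. Library totals of 23253566 to 35012561 counts limit low genes most, and floors (3 counts) cover counting error alone. Alternatives were RLE factors, library totals, other filters, DESeq2 1.42.0, limma 3.58.1 (voom with quality weights), no pairing, the WT lines in the fit and each line left out. The procedure was tested on simulated counts.

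The libraries, the 16 gene lists and the 15 marker lists were chosen with earlier results of these data known. Of 387 list genes, 383 were matched. The genes named were, for the 3-line fit and the fit of lines 1 and 2, up to 12 per direction that passed with the largest fold change, at least 1 CPM and the same sign in each line, filled to 6 by unadjusted p. To these were added the 6 largest rises and falls in line 3, the 3 smallest p of each test of KO against WT responses, and in each list the 3 of highest cRPKM and the 3 of largest difference. Other genes were named after their values were seen, and a few genes that these rules gave are not reported here.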

Additional observations from a re-analysis of the deposited data

Results flagged for a closer look

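The median of the mitochondrially encoded protein genes was below 0 in every KO line and above 0 in every WT line, although 3 of the 13 genes were higher in KO line 1, and 4 and 3 were lower in WT lines 1 and 2. The median log2 CPM difference (inhibitor minus vehicle) was -0.50, -0.21 and -0.62 in KO lines 1 to 3 and 0.04, 0.05 and 0.23 in WT lines 1 to 3, so the mean was -0.44 in KO and 0.11 in WT, a gap of -0.55. The list was flagged for this split between KO and WT lines. The exact two-sided permutation test over lines gave 0.1, the smallest p possible, and 0.793 after adjustment over 17 measures. A full split of 3 against 3 lines always gives this p, so the test adds nothing to the flag. This test counts KO line 3, whose inhibitor library stood apart in Y-linked RNA and cell type markers, and it was not run without that line.

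Meg3, a maternally expressed imprinted noncoding RNA, was lower with inhibitor in every KO line and higher in every WT line, in WT line 1 by only 0.05 on the log2 scale. It was flagged for this split, and the share of all genes split in this way was not counted. Meg3 was at 2.64, 2.90 and 1.65 CPM in KO vehicle libraries and at 0.656, 1.53 and 0.382 CPM (21, 53 and 12 counts) in KO inhibitor libraries. In WT it was at 21.8, 8.57 and 19.1 CPM in vehicle and at 22.6, 16.4 and 450 CPM in inhibitor. The mean log2 difference was -1.57 in KO and 1.85 in WT, a gap of -3.42, and WT line 3 alone differed by 4.55. For Meg3 the difference between genotypes had an adjusted p of 1 in edgeR without KO line 3 and 0.0174 when WT lines 2 and 3 were left out too, and the KO vehicle libraries were below the WT libraries before any inhibitor.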

How the results depend on the processing

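Line 3 decides the 3-line result: the count called was 0 without line 1, 0 without line 2 and 1531 without line 3, and limma voom with quality weights called 156. In lines 1 and 2, no replicate block gave 0 calls, the replicate block with the WT lines in the fit gave 0 and DESeq2 gave 353, while RLE factors, library totals, no filter, at least 1 CPM and limma voom gave 1759, 1080, 1800, 1658 and 1644. Leaving out a line there leaves 1 pair and no test. The test of KO against WT responses stayed at 0 in every alternative run with all 12 libraries. Without KO line 3 it gave 29 in DESeq2 and 197 without WT lines 2 and 3 (chosen after seeing the data), and 0 otherwise. The causes were not tested. The single values checked were 12 from the 3-line fit, 96 from lines 1 and 2 and 3 from each test of KO against WT responses. None of these turned its direction. Of those from lines 1 and 2, all 96 lost their call without the block or with the WT lines in the fit, 63 in DESeq2 and 15 with library totals. Pga5 and Ddx3y, named for line 3, were not among the 12 and did turn. Pga5 was at 1.28 in edgeR with 3 lines and -0.18 with lines 1 and 2. Ddx3y was at -1.63 in edgeR and 0.007 in limma voom, both with 3 lines. The same-line correlations (-0.19, 0.57 and -0.37) do not pair the 3 KO lines by the data, and without the block the 3-line count stayed at 0, while the genes at an unadjusted p below 0.05 went from 36 higher and 90 lower to 79 and 54. Depth limits genes near 1 CPM.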
